A study of Harpegnathos saltator with 36 samples.

Results

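The ovaries of 4 egg-laying gamergates were compared with the ovaries of 4 nonreproductive workers of the ant Harpegnathos saltator. All genes of the ovary count table entered the comparison: of 12654 genes, 678 had no read in these 8 libraries and 9267 passed the filter on low counts and were tested. The 8 libraries are part of 36 in the series, which covers 3 tissues (ovary, central brain without optic lobes and abdominal fat body) of 3 castes (gamergates, revertants and workers) with 4 ants each. Gamergates are workers that began to duel and to lay eggs after age-matched workers had been housed in a nest with no reproductive female. Gamergates were identified from their behavior after 3 months. Both groups were 6 months old and no drug, injection or genetic change is described for either. Each library was made from poly(A) RNA of the whole ovary pair of 1 ant, so that germ line, follicle cells, muscle sheath, trachea and any attached tissue were measured together. In such bulk samples, fewer cells of a type and less RNA per cell cannot be told apart.

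An insect ovary is a set of ovarioles. In each ovariole, germ-line stem cells in the germarium found egg chambers, in which nurse cells load RNA and protein into the oocyte while follicle cells around them pass yolk and then build the eggshell. Ovarioles of reproductive ants carry chambers up to full-sized oocytes, whereas those of workers mostly stop at early chambers. The roles given for genes below are those known from Drosophila unless another source is named, and gene symbols are those of the RefSeq annotation.

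Levels are given as CPM (a gene's count relative to the library's total), scaled between libraries by the trimmed mean of M values. CPM is not corrected for gene length, so levels are compared only between libraries and not between genes. Library totals ranged over 5354569 to 23882325 counts in gamergates and 1863023 to 7519671 counts in workers. All 4 gamergate libraries and worker replicate 3 held over 3500000 counts, and the other 3 worker libraries held fewer, so depth and caste overlap in this design. The 10 most abundant genes took 9.28 to 14.1% of the reads in gamergates and 3.61 to 4.43% in workers. The germ-line markers vas, nanos and AGO3 were present in all 8 libraries, at 662 to 755, 154 to 179 and 163 to 179 CPM in gamergates and at 693 to 1111, 157 to 185 and 136 to 228 CPM in workers. These markers do not show equal germ-line content, which was not tested. Of 42 germ-line and oocyte RNA regulators, 7 were higher and 15 lower in gamergates, with the germ-line markers Siwi and orb among the lower. Worker replicate 3 stood apart: on the first principal component, which held 81.1% of the variance of 8420 genes, gamergates lay at -76.9 to -59.3, the other 3 workers at 74.9 to 85.1 and worker replicate 3 at 30.4. It was the worker closest to the gamergate mean for 50.4% of the genes called. Values without it are given beside the calls, counts and fold changes that it changed most.

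The castes differed across most of the ovary transcriptome. Of the genes tested, 58.3% passed an adjusted p of 0.05 in edgeR's quasi-likelihood test, 29.4% (2725 genes) higher and 28.9% (2681 genes) lower in gamergates. In 54.5% of the genes the 4 gamergates did not overlap the 4 workers, 29% above and 25.5% below. Without overlap, an exact two-sided permutation test over the 8 libraries can only give 0.0286, the smallest value it allows, so it adds nothing to the separation. Decreases were more often moderate and increases more often extreme. A called change of at least 1 on the log2 scale was found in 1146 higher and 1651 lower genes, and one of at least 5 in 162 higher and 20 lower genes. The median SD of log2 CPM was 0.173 over gamergates and 0.335 over workers. The split of the calls depended on the scaling: with library size alone, 2071 genes were higher and 3209 lower, and the median over all genes moved to -0.18, against -0.01 with the main scaling. Without worker replicate 3, 3302 genes were higher and 3089 lower. With library size class (over or under 3500000 counts) as a term in a fit of all 12 ovary libraries, revertants included, 2387 genes were higher and 2445 lower, and the same 12 libraries without the term gave 2620 and 2652.

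**Figure D1:**
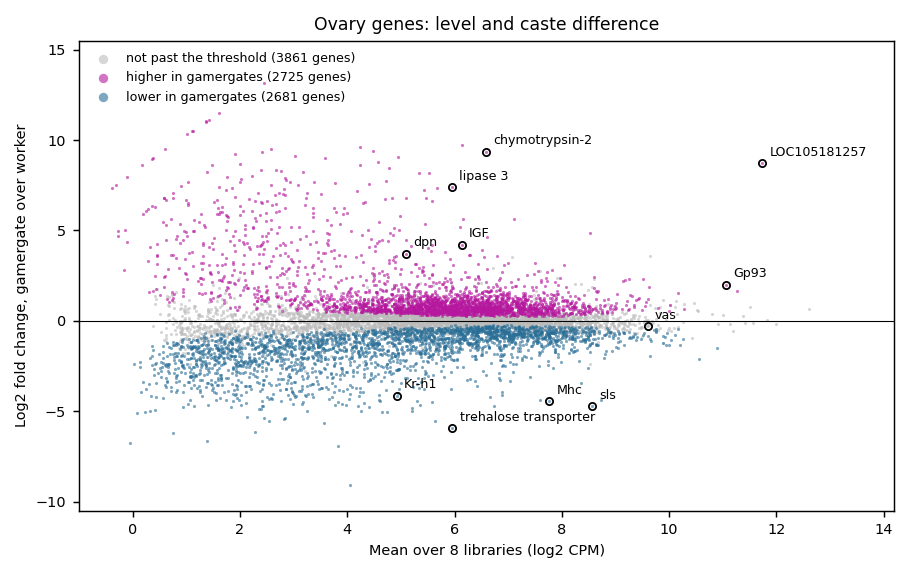
Mean level over the 8 libraries (x axis, log2 CPM) against the log2 fold change, gamergate over worker (y axis) of the 9267 genes tested, 1 point per gene, with a few genes labelled. Genes higher in gamergates (2725) and lower in gamergates (2681) are colored, and the upper edge extends farther from 0 than the lower edge.

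Among genes with a mean of at least 5 log2 CPM, unnamed genes and genes named as digestive enzymes were among the largest increases. LOC105181257, an uncharacterized gene, had 108800, 34763, 75725 and 78285 CPM in gamergates, against 161, 245, 124 and 169 CPM in workers. It alone took 3.45 to 9.68% of all reads in gamergates and 0.0115 to 0.0266% in workers. Its log2 fold change was 8.73 (SE 0.77, adjusted p = 6.15e-05). A chymotrypsin-2 gene (LOC105182906), a digestive serine protease by name, had 2961, 3160, 1870 and 2063 CPM in gamergates, against 5.90, 2.77, 1.58 and 5.72 CPM in workers (log2 fold change 9.36, SE 0.52, adjusted p = 9.03e-06). An aminopeptidase N (LOC105180903), which trims amino acids from peptides, had 914, 1025, 518 and 582 CPM in gamergates, against 2.68, 1.59, 3.87 and 0.953 CPM in workers (8.20, SE 0.44, adjusted p = 7.51e-06). Gamergate replicates 1 and 2 were higher than replicates 3 and 4 in both genes. A lipase 3 (LOC105186640) had 471, 754, 1021 and 1311 CPM in gamergates, against 5.36, 4.36, 7.74 and 1.91 CPM in workers (7.42, SE 0.49, adjusted p = 1.81e-05), and here gamergate replicates 3 and 4 were the higher ones.

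A sterol-binding protein gene and a second lipase gene were also among the largest increases. A homolog of NPC2 (LOC105186089), a small sterol-binding protein, had 603, 526, 290 and 440 CPM in gamergates, against 5.90, 24.2, 4.01 and 20.015 CPM in workers (log2 fold change 5.20, SE 0.59, adjusted p = 0.000179). A pancreatic triacylglycerol lipase (LOC105187559) had 287, 247, 203 and 258 CPM in gamergates, against 5.90, 5.15, 32.8 and 6.67 CPM in workers (4.17, SE 0.58, adjusted p = 0.000411, and 5.41 without worker replicate 3). Worker replicate 3 lay above the other workers in the second gene. The genes of largest change were chosen among those without overlap of the castes, so that their separation is no result. Of 20 tested genes in a list of digestive and venom proteins, 9 were higher and 5 lower (45% and 25%, beside 29.4% and 28.9% of all genes). The list's median log2 fold change was -0.08. Its summed level was 4930 to 6500 CPM in gamergates and 703 to 1253 CPM in workers. Chymotrypsin-2 alone made up 1870 to 3160 CPM of the sum in gamergates, so the sum does not describe the list as a whole. Whether gut or gland cells were dissected with the ovary was not tested. The enzymes belong to gene families, and reads could have been split or shared between near-identical copies, since the counting is not described in the sources used here. Not all of the unnamed genes rose evenly: LOC105182131 had 1567, 19639, 40.2 and 407 CPM in gamergates, against 11.3, 4.36, 3.44 and 6.20 CPM in workers, so that gamergate replicate 2 was far above gamergate replicate 3 (log2 fold change 9.75, SE 2.01, adjusted p = 0.00309, and 6.77 without gamergate replicate 2). LOC105189590 was steadier, at 878, 979, 635 and 712 CPM in gamergates and 1.34, 2.77, 4.01 and 2.38 CPM in workers.

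Genes of a few regulators of transcription were among the largest increases as well. Prdm13, a zinc-finger regulator, had 215, 200, 170 and 159 CPM in gamergates, against 11.8, 7.13, 19.6 and 11.4 CPM in workers (log2 fold change 3.84, SE 0.28, adjusted p = 2.61e-05). The repressor gene dpn (deadpan) had 146, 138, 120 and 111 CPM in gamergates, against 15, 4.76, 9.46 and 9.05 CPM in workers (3.72, SE 0.28, adjusted p = 3.06e-05). A GATA-binding factor A gene (LOC105188093) had 252, 204, 199 and 176 CPM in gamergates, against 15.6, 14.7, 33.8 and 11.9 CPM in workers (3.40, SE 0.32, adjusted p = 8.06e-05). Worker replicate 3 was the highest worker in Prdm13 and in the GATA factor gene, and worker replicate 1 in dpn.

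**Figure D2:**
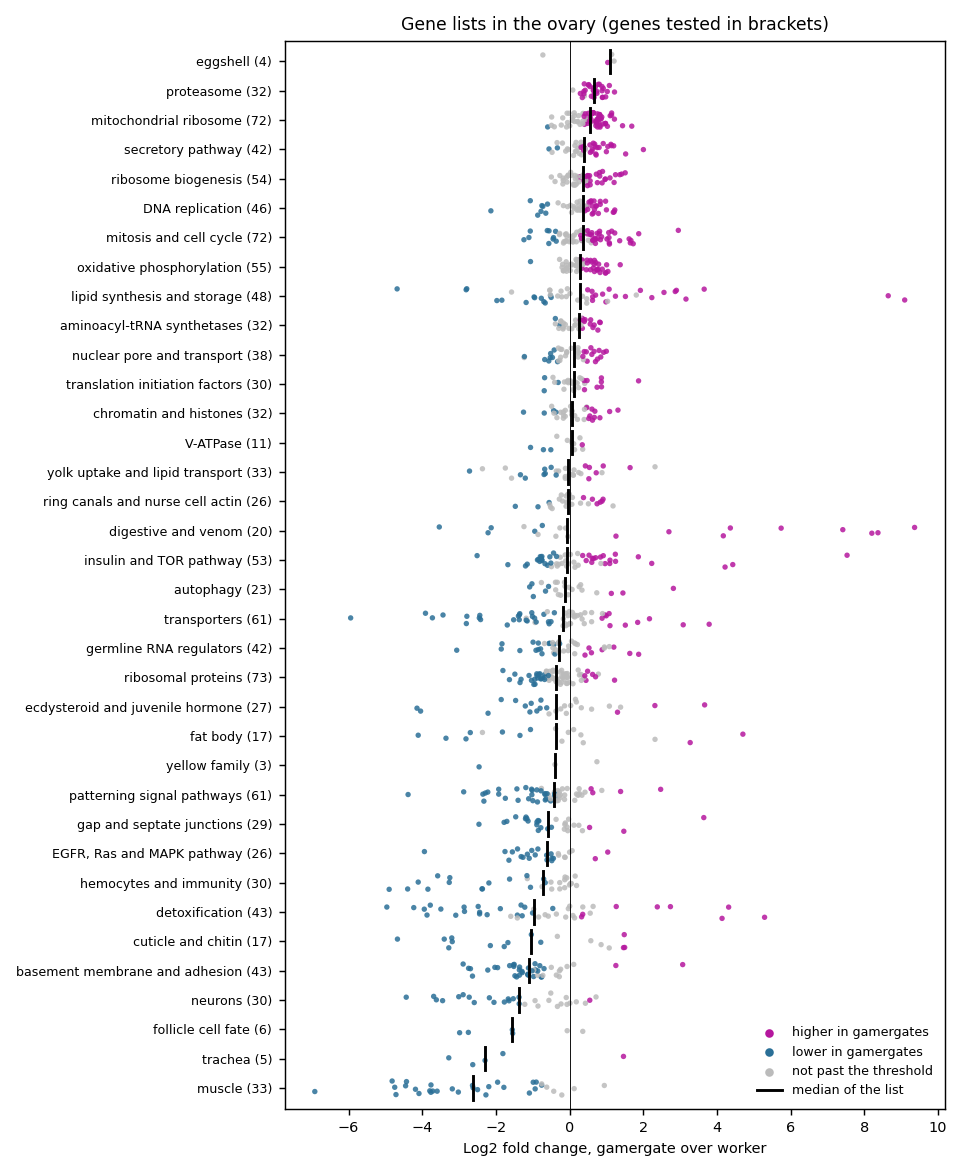
Log2 fold change, gamergate over worker (x axis), of the tested members of 36 gene lists (rows, with the number tested in brackets, ordered by median). Each point is a gene, colored by its call, and the black bar is the list's median. Muscle has the lowest median (-2.62), and 30 of 32 proteasome genes are higher in gamergates, beside 29.4% of all genes.

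Among germ-line and oocyte RNA regulators, 7 of 42 genes were higher and 15 lower in gamergates (16.7% and 35.7%, beside 29.4% and 28.9% of all genes), with a median log2 fold change of -0.29. Of the germ-line markers, vas and nanos did not pass the test, whereas Siwi and orb were lower. The RNA helicase gene vas had 662, 668, 755 and 751 CPM in gamergates, against 757, 1111, 907 and 693 CPM in workers (-0.29, SE 0.18, adjusted p = 0.194). The translational repressor gene nanos had 161, 155, 179 and 154 CPM in gamergates, against 185, 157, 164 and 162 CPM in workers (-0.04, SE 0.10, adjusted p = 0.744). Both genes overlapped between castes. A piwi-like gene, Siwi (LOC105184384), whose product silences transposons with small RNAs, fell to 55.2, 75.8, 74 and 80.6 CPM in gamergates, against 259, 338, 162 and 261 CPM in workers (-1.84, SE 0.22, adjusted p = 0.000236). By contrast papi, a mitochondrial tudor-domain gene of the same pathway, had 1031, 1172, 944 and 1005 CPM in gamergates, against 412, 429, 554 and 411 CPM in workers (1.20, SE 0.16, adjusted p = 0.000353). AGO3, another member of the pathway, did not pass the test (0.05, SE 0.17, adjusted p = 0.806). Also lower were orb, which controls translation of oocyte RNAs (-0.91, SE 0.22, adjusted p = 0.00629), and bru3, an RNA-binding protein gene (-3.06, SE 0.36, adjusted p = 0.000201).

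Of the genes that act in the maturing oocyte, Marf1 was higher in gamergates, and others reached the gamergate level in worker replicate 3. Marf1, an RNA regulator needed for oocyte maturation, had 1834, 1778, 1703 and 1503 CPM in gamergates, against 302.04, 249, 1092 and 213 CPM in workers (log2 fold change 1.87, SE 0.51, adjusted p = 0.0123, and 2.76 without worker replicate 3). The gene exu, which places RNAs in the oocyte, had 2110, 1535, 2030 and 1779 CPM in gamergates, against 476, 627, 2071 and 358 CPM in workers. It did not pass the test with all libraries (1.08, SE 0.52, adjusted p = 0.103) and passed it without worker replicate 3 (1.95, adjusted p = 4.27e-05). The same held for tral, an oocyte RNA-granule gene (0.94 with all libraries, and 1.56 with adjusted p = 4.88e-05 without worker replicate 3). Without that library, 12 of the 42 genes of the list were higher and 16 lower. Of the list for ring canals, the bridges between nurse cells and oocyte, 6 of 26 genes were higher and 3 lower with all libraries. That was 23.1% and 11.5%, beside 29.4% and 28.9% of all genes. Without worker replicate 3 the counts were 10 and 3.

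Yolk genes showed the same split. The vitellogenin receptor gene yl, through which oocytes take up yolk, had 1559, 1530, 1704 and 1490 CPM in gamergates, against 561, 497, 1968 and 388 CPM in workers. Worker replicate 3 was above all gamergates, and the test with all libraries was not passed (0.88, SE 0.49, adjusted p = 0.150), but that without it was (1.72, adjusted p = 1.48e-05). Vg, which encodes the yolk precursor vitellogenin, had 2716, 1238, 700 and 1661 CPM in gamergates, against 108, 51.1, 1079 and 21.9 CPM in workers (2.32, SE 1.11, adjusted p = 0.0998, and 4.70 with adjusted p = 0.000131 without worker replicate 3). Of 33 tested genes for yolk uptake and lipid transport, 6 were higher and 8 lower (18.2% and 24.2%, beside 29.4% and 28.9% of all genes, median -0.03). Without worker replicate 3, 10 were higher and 11 lower (3 higher without worker replicate 1). Among the lower ones was mgl, a relative of megalin and thus of the same receptor family as yl, at 916, 645, 460 and 632 CPM in gamergates and 1170, 1231, 923 and 2785 CPM in workers (-1.20, SE 0.37, adjusted p = 0.0215). That call was not stable: adjusted p was 0.0563 without gamergate replicate 2, 0.0621 without gamergate replicate 3 and 0.0564 without gamergate replicate 4, and in the 12 ovary libraries it was 0.0720 without and 0.954 with the term for library size class.

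Only 4 of 7 eggshell genes passed the filter, and 1 of these was called. It was tsl, torso-like, which follicle cells at the ends of the egg secrete to mark its poles, at 77.0, 44.4, 32.8 and 48.5 CPM in gamergates and 19.3, 35.3, 22.1 and 22.9 CPM in workers (log2 fold change 1.04, SE 0.29, adjusted p = 0.0134). Gamergate replicate 3 was below worker replicate 2, so the castes overlapped in tsl. The vitelline membrane gene fs(1)N had 413, 377, 449 and 388 CPM in gamergates, against 77.5, 25.4, 585 and 41.9 CPM in workers (1.14, SE 0.86, adjusted p = 0.276, and 3.06 with adjusted p = 2.36e-05 without worker replicate 3). The protease gene ndl, nudel, which follicle cells secrete into the eggshell space, split the gamergates: it had 831, 696, 55.6 and 36.2 CPM in gamergates, against 123, 220, 157 and 202 CPM in workers (1.21, SE 0.89, adjusted p = 0.268). Gamergate replicates 1 and 2 were above every worker and replicates 3 and 4 below every worker.

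**Figure D3:**
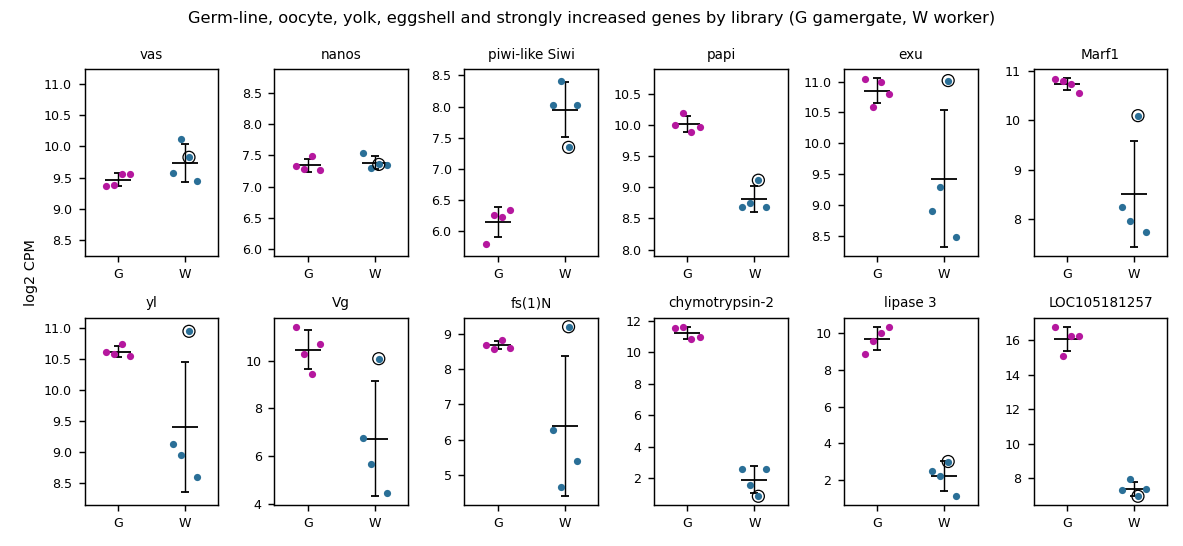
Log2 CPM (y axis, with its own range in each panel) of 9 germ-line, oocyte, yolk and eggshell genes and 3 of the genes with the largest increases in the 4 gamergates (G) and 4 workers (W). Points are libraries, the bar and whiskers are mean and SD, and worker replicate 3 is ringed; in exu, yl and fs(1)N the ringed point lies among or above the gamergates, whereas in chymotrypsin-2, lipase 3 and LOC105181257 it lies with the other workers.

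Genes of DNA replication and of cell division leaned to gamergates. Of 46 DNA replication genes, 22 were higher and 8 lower (47.8% and 17.4%, median 0.37, 12 and 9 with library size alone, and 15 and 4 under the term for library size class). Of 72 genes of mitosis and the cell cycle 35 were higher and 10 lower (48.6% and 13.9%, median 0.36, and 19 and 10 under that term). Over all genes the shares were 29.4% and 28.9% and the median was -0.01. In the list, the mitotic kinase gene Cdk1 had 52.4, 76.0, 45.5 and 53.6 CPM in gamergates, against 19.6, 34.1, 28.4 and 20.5 CPM in workers (1.14, SE 0.23, adjusted p = 0.00259). The kinase gene aurB, which corrects the attachment of chromosomes, had 134, 174, 109 and 135 CPM in gamergates, against 37.3, 51.9, 52.3 and 33.8 CPM in workers (1.65, SE 0.20, adjusted p = 0.000207). Gamergate replicate 2 was the highest library in both genes. The gene fzy, an activator of the anaphase-promoting complex, was also higher (1.62, SE 0.18, adjusted p = 0.000174), as was pch2, a meiotic checkpoint gene (1.63, SE 0.20, adjusted p = 0.000249).

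Among other cell-cycle genes, dap, fzr and CycD were lower. The Cdk inhibitor gene dap (dacapo) had 32.8, 29.7, 38 and 32.4 CPM in gamergates, against 57.4, 93.9, 65.8 and 70.1 CPM in workers (log2 fold change -1.10, SE 0.17, adjusted p = 0.00063). The gene fzr, which stops mitotic cycles when follicle cells turn to endoreplication, had 39.5, 35.9, 44.3 and 34.6 CPM in gamergates, against 61.2, 49.5, 59.1 and 58.6 CPM in workers (-0.56, SE 0.13, adjusted p = 0.00466). No gamergate overlapped a worker in dap or fzr. The cyclin gene CycD was lower (-0.56, SE 0.19, adjusted p = 0.0337), a call that was lost without any 1 of gamergate replicates 2, 3 and 4 or worker replicates 1 and 2. The cyclin genes CycE (0.32, SE 0.14, adjusted p = 0.0721) and CycB3 (0.09, SE 0.19, adjusted p = 0.709) did not pass the test. Of the 4 most abundant replication genes, Mcm2 of the replicative helicase did not pass the test (0.05), a ribonucleotide reductase subunit (LOC105189123) was higher (0.58), and RpA-70 and DNAlig1, for single-strand binding and ligation, were lower (-0.60 and -0.65), with the last 3 calls lost when library size class was a term. The cell-cycle genes described here, other than those chosen as most abundant, were chosen after their values were seen.

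Proteasome genes were nearly all higher in gamergates. Of 32 proteasome genes 30 were higher and none lower (93.8% higher, beside 29.4% of all genes, median 0.67). The counts were 30 and 0 without worker replicate 3 and with library size class as a term, and 23 and 0 with library size alone. The proteasome subunit gene Rpn1 had 641, 593, 620 and 587 CPM in gamergates, against 330, 343, 387 and 266 CPM in workers (0.88, SE 0.14, adjusted p = 0.000899). For the next 3 lists, the shares of all genes to compare were 29.4% higher and 28.9% lower. Of 72 genes of the mitochondrial ribosome 44 were higher and 1 lower (61.1% and 1.39%, median 0.56). Of 55 genes of oxidative phosphorylation 25 were higher and 1 lower (45.5% and 1.82%, median 0.29). Of 42 genes of the secretory pathway 23 were higher and 2 lower (54.8% and 4.76%, median 0.40). Without worker replicate 3 these counts were 43 and 4, 24 and 3, and 27 and 3, and with library size alone 27 and 2, 15 and 1, and 17 and 5. The endoplasmic reticulum chaperone gene Gp93 had 5158, 4692, 4628 and 4616 CPM in gamergates, against 808, 822, 2667 and 465 CPM in workers (2.00, SE 0.51, adjusted p = 0.00886, and 2.79 without worker replicate 3). Its chaperone partners Hsc70-3 (1.52, SE 0.38, adjusted p = 0.00772) and Calr (1.20, SE 0.27, adjusted p = 0.00476) rose as well, and worker replicate 3 was again the highest worker in Gp93.

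The cytosolic ribosome did not follow one direction. Of its assembly factors, 26 of 54 genes of ribosome biogenesis were higher and none lower (median 0.37, 28 and 1 without worker replicate 3, and 16 and 3 with library size alone), among them nop5 of the small nucleolar particles (0.89, SE 0.11, adjusted p = 0.00021). Of 73 ribosomal protein genes 6 were higher and 21 lower (median -0.37). The share lower, 28.8%, was that of all genes (28.9%), and the share higher was 8.22%, beside 29.4% of all genes. The number lower was 7 without gamergate replicate 3 and 51 without worker replicate 3 (then 5 higher, median -0.59). The term for library size class turned the list round to 24 higher and 3 lower (median 0.34). RpL32, a common reference gene for quantitative PCR, was lower in gamergates (-0.86, SE 0.26, adjusted p = 0.0182), with an adjusted p of 0.0541 without gamergate replicate 3 and a log2 fold change of 0.02 with library size class as a term. RpL3 was higher (0.70, SE 0.15, adjusted p = 0.00379), and LysRS, which charges lysine transfer RNA, was among 13 of 32 aminoacyl-tRNA synthetase genes that were higher (2 were lower, and with library size alone 5 were higher and 3 lower).

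Autophagy genes stayed mostly under the threshold, with 3 of 23 higher and 5 lower (13% and 21.7%, beside 29.4% and 28.9% of all genes). Their median was -0.14, and the counts were 6 and 6 without worker replicate 3. The exception in size was Atg3, an enzyme that attaches Atg8 to lipid, at 702, 570, 602 and 606 CPM in gamergates and 67.3, 72.9, 141 and 68.6 CPM in workers (log2 fold change 2.82, SE 0.26, adjusted p = 7.73e-05). Atg17, a scaffold of the initiating complex, was lower (-1.02, SE 0.17, adjusted p = 0.000876) and Atg8a did not pass the test (0.26). Acph-1, an acid phosphatase of lysosomes, rose (3.13, SE 0.56, adjusted p = 0.00151).

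Among steroid hormone genes, sad and shd of the synthesis pathway were higher in gamergates, and sro and dib did not pass the test with all libraries and passed it without worker replicate 3. Insects make ecdysteroids from cholesterol through the enzymes of nvd, sro, phtm, dib, sad and shd, and follicle cells are a source in adult females. The gene sad had 27.8, 23.1, 24.5 and 19.0 CPM in gamergates, against 1.34, 1.19, 2.58 and 1.91 CPM in workers (log2 fold change 3.67, SE 0.28, adjusted p = 3.06e-05). The gene shd, for the last step to the active hormone, had 361, 362, 316 and 276 CPM in gamergates, against 93.6, 57.9, 48.7 and 64.3 CPM in workers (2.32, SE 0.21, adjusted p = 6.88e-05). Both were far above every worker, worker replicate 3 included. The gene sro had 93.4, 80.1, 83.9 and 86.4 CPM in gamergates, against 17.4, 13.1, 80.7 and 15.2 CPM in workers (1.38, SE 0.54, adjusted p = 0.0520, and 2.497 with adjusted p = 5.69e-07 without worker replicate 3). The gene dib had 200, 169, 197 and 182 CPM in gamergates, against 59.0, 48.3, 206 and 34.8 CPM in workers (1.08, SE 0.50, adjusted p = 0.0896, and 1.98 with adjusted p = 7.67e-06 without worker replicate 3). Worker replicate 3 was at the gamergate level in both.

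The first enzymes were less certain. The oxygenase gene nvd, which acts first on cholesterol, was higher in gamergates (1.30, SE 0.43, adjusted p = 0.0276), but adjusted p was 0.0720 without gamergate replicate 1, 0.0508 without worker replicate 1, 0.0588 without worker replicate 4 and 0.0561 with library size alone. The gene phtm leaned the other way (-0.89, SE 0.34, adjusted p = 0.0471), and its adjusted p lay between 0.0600 and 0.149 without any 1 of gamergate replicates 1, 2 and 4 or worker replicates 1, 2 and 4, and was 0.782 with library size class as a term. These enzyme genes were named because of the pathway, after their values had been seen.

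Of the response genes described here, Kr-h1, E75, Eip93F and ftz-f1 were lower, whereas Eip74EF (0.03, SE 0.48, adjusted p = 0.962) and br (-0.56, SE 0.43, adjusted p = 0.289), both early ecdysone-response genes, did not pass the test. Without worker replicate 3, Eip74EF was higher in gamergates (0.92, adjusted p = 0.000213). Kr-h1, the main target of juvenile hormone signaling, had 8.40, 7.15, 9.37 and 5.51 CPM in gamergates, against 137, 189, 45.3 and 173 CPM in workers (log2 fold change -4.14, SE 0.44, adjusted p = 0.000136). The ecdysone-response genes E75 and Eip93F and the nuclear receptor gene ftz-f1 had lower levels in every gamergate than in any worker. E75 had 161, 152, 129 and 91.2 CPM in gamergates, against 252, 358, 178 and 312 CPM in workers (-1.04, SE 0.25, adjusted p = 0.00604, and 0.148 with library size class as a term). Eip93F had 134, 92.5, 216 and 205 CPM in gamergates, against 436, 564, 1421 and 584 CPM in workers (-2.21, SE 0.43, adjusted p = 0.00218). Here worker replicate 3 was the library farthest from the gamergates. The level of ftz-f1 was 54.6, 64.7, 58.2 and 51.5 CPM in gamergates, against 128, 129, 152 and 116 CPM in workers (-1.20, SE 0.12, adjusted p = 0.000101). Of the hormone receptor itself, usp, which encodes the partner subunit, was lower (-0.80, SE 0.19, adjusted p = 0.00594), and Ecr, the ecdysone receptor, did not pass the test (-0.37, SE 0.14, adjusted p = 0.0519). In the whole list of 27 tested hormone genes 3 were higher and 12 lower (11.1% and 44.4%, beside 29.4% and 28.9% of all genes, median -0.37). Without worker replicate 3, 7 were higher and 13 lower.

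**Figure D4:**
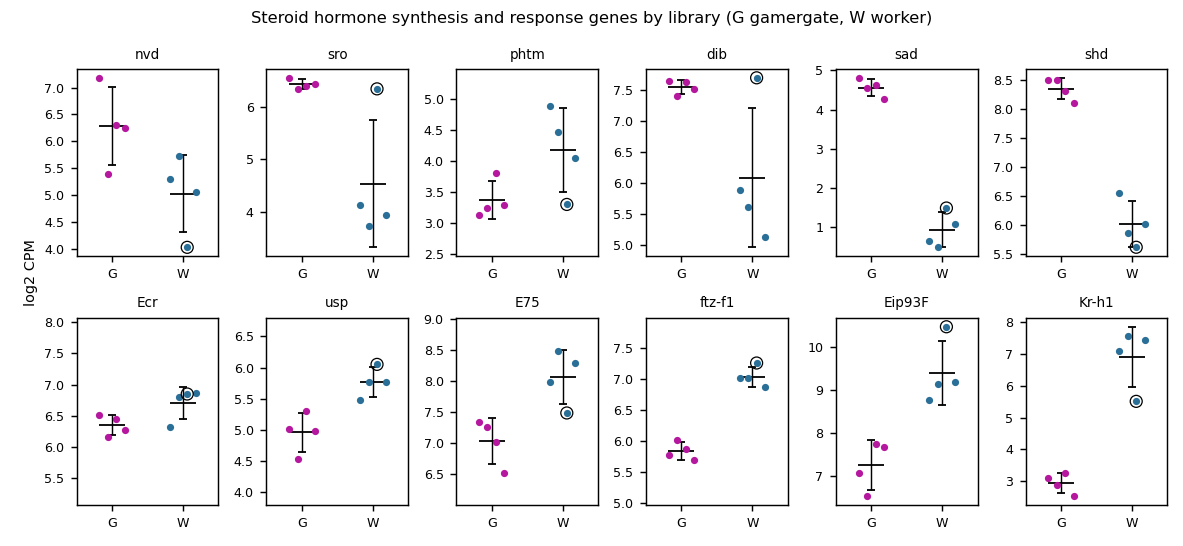
Log2 CPM (y axis, with its own range in each panel) of 6 genes for ecdysteroid synthesis and 6 genes for the response to ecdysteroid and juvenile hormone in the 4 gamergates (G) and 4 workers (W). Points are libraries, the bar and whiskers are mean and SD, and worker replicate 3 is ringed; sad and shd are higher in all gamergates, Kr-h1 is lower in all gamergates, and the ringed point of sro and dib lies at the gamergate level.

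Receptor and kinase genes of the growth-factor pathways were mostly lower in gamergates. Of 26 genes of the EGFR, Ras and MAPK pathway, through which the oocyte instructs follicle cells, 2 were higher and 18 lower. That was 7.69% and 69.2%, beside 29.4% and 28.9% of all genes (median -0.62). The receptor gene Egfr had 150, 95.4, 160 and 118 CPM in gamergates, against 220, 272, 335 and 170 CPM in workers (-0.93, SE 0.24, adjusted p = 0.00827). Its ligand gene Vein had 0.569, 0.564, 0.223 and 0.319 CPM in gamergates, against 4.02, 9.91, 2.58 and 9.53 CPM in workers (-3.94, SE 0.57, adjusted p = 0.000493). Every gamergate was below every worker in Egfr and Vein, but Vein had only 3 to 8 reads in each gamergate and 15 to 25 in each worker. The pathway repressor gene cic (-0.61, SE 0.16, adjusted p = 0.0101) and the scaffold gene cnk (-0.62, SE 0.13, adjusted p = 0.00282) were lower, and the scaffold gene ksr was higher (0.70, SE 0.12, adjusted p = 0.00101). Messenger levels do not measure the phosphorylation of these kinases.

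The insulin and TOR list had 19 higher and 18 lower genes of 53 (median -0.08), near the share of all genes on both sides. Among the study's own identifiers, the receptor genes InR1 (-1.20, SE 0.15, adjusted p = 0.000249) and InR2 (-1.68, SE 0.17, adjusted p = 0.000122) were lower. IGF (4.22, SE 0.27, adjusted p = 1.6e-05), ALS (4.43, SE 0.30, adjusted p = 2.24e-05) and Imp-L2 (2.23, SE 0.28, adjusted p = 0.000249) were higher. The insulin gene Ins did not pass the test (0.85, SE 0.38, adjusted p = 0.0854) and had only 7 to 47 reads in each gamergate and 1 to 7 in each worker. Thor, a translational repressor under TOR, was higher (0.84, SE 0.15, adjusted p = 0.00135, and 0.0583 with library size class as a term), and foxo (-0.60, SE 0.15, adjusted p = 0.00897) and the AMP-kinase subunit gene SNF4Agamma (-0.87, SE 0.18, adjusted p = 0.00268) were lower. Of 61 genes of the Notch, BMP, Wnt, Hedgehog, JAK-STAT and Hippo pathways, which pass signals between germ line and follicle cells, 4 were higher and 30 lower. That was 6.56% and 49.2%, beside 29.4% and 28.9% of all genes (median -0.42). Without worker replicate 3 the counts were 11 and 29. The receptor gene N (Notch) had 233, 169, 249 and 207 CPM in gamergates, against 414, 479, 498 and 345 CPM in workers (-1.02, SE 0.17, adjusted p = 0.00103). The JAK-STAT receptor gene dome had 595, 463, 500 and 456 CPM in gamergates, against 963, 1177, 1022 and 936 CPM in workers (-1.02, SE 0.16, adjusted p = 0.000663). The transcription factor gene Stat92E of the same pathway did not pass the test (-0.13).

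Of 6 genes of follicle cell fate, 4 were lower and none higher (66.7% lower, beside 28.9% of all genes, median -1.55). The homeobox gene mirr, which patterns the follicle cells along the egg axis, had 20.7, 16.7, 19.5 and 16 CPM in gamergates, against 136, 224, 49.3 and 175 CPM in workers (-2.99, SE 0.40, adjusted p = 0.000372). The homeobox gene cut had 20.1, 31.4, 38.5 and 29.6 CPM in gamergates, against 81.8, 109, 57.8 and 102 CPM in workers (-1.55, SE 0.25, adjusted p = 0.000891). Worker replicate 3 was the lowest worker in both, still above the gamergates. The somatic gonad regulators tj (0.36, SE 0.22, adjusted p = 0.181) and eya (-0.07, SE 0.24, adjusted p = 0.825) did not pass the test.

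Of 43 genes of basement membrane and adhesion, 2 were higher and 31 lower (4.65% and 72.1%, beside 29.4% and 28.9% of all genes, median -1.12). The counts were 2 and 30 without worker replicate 3. The perlecan gene trol, a proteoglycan of the basement membrane, had 688, 667, 840 and 791 CPM in gamergates, against 1486, 2489, 1813 and 1870 CPM in workers (-1.36, SE 0.21, adjusted p = 0.000638). Of 29 genes of gap and septate junctions, 3 were higher and 16 lower (10.3% and 55.2%, median -0.59), and 5 and 16 without worker replicate 3. The septate junction gene cora had 329, 224, 344 and 359 CPM in gamergates, against 722, 918, 979 and 843 CPM in workers (-1.46, SE 0.19, adjusted p = 0.000288), and Nrg of the same junction was lower as well (-1.16, SE 0.19, adjusted p = 0.00104). Against this direction, mesh, of the smooth septate junctions of gut-type epithelia, was higher (3.64, SE 0.57, adjusted p = 0.000737). It was chosen after its values were seen, and its levels were 12.0 to 19.6 CPM in gamergates and 0 to 2.38 CPM in workers.

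Muscle had the lowest median of the 36 lists. Of 33 genes 27 were lower and none higher (81.8% lower, beside 28.9% of all genes, median -2.62). Without worker replicate 3, 29 were lower and 2 higher. Under the term for library size class the median was -1.33, above that of the trachea list (-1.57). The titin gene sls had 91.8, 95.9, 81.8 and 83.2 CPM in gamergates, against 1753, 3825, 294 and 3382 CPM in workers (-4.71, SE 0.70, adjusted p = 0.000587). The muscle myosin gene Mhc had 52.1, 59.2, 50.6 and 57.5 CPM in gamergates, against 1021, 2017, 182 and 1504 CPM in workers (-4.43, SE 0.64, adjusted p = 0.000495). The 4 gamergates were close together, and worker replicate 3 had the lowest muscle level of the workers. Other members ranged widely: the troponin gene wupA was far lower (-4.45, SE 0.63, adjusted p = 0.00045), whereas Tm1, a tropomyosin (-0.99, SE 0.15, adjusted p = 0.000721), and Actn, an actin crosslinker that nonmuscle cells also use (-0.76, SE 0.15, adjusted p = 0.00246), had small decreases.

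Lists for other cell types and organs that can accompany a dissected ovary also differed, and their part in the other results was not tested. The summed level of the muscle list was 2697 to 3617 CPM in gamergates and 5521 to 16712 CPM in workers. For 30 genes of hemocytes and immunity it was 1470 to 1614 CPM in gamergates and 2538 to 3001 CPM in workers. Of these, 15 were lower (50%, beside 28.9% of all genes) and none higher, and 8 and 1 with library size class as a term. For 30 genes of neurons the summed level was 547 to 842 CPM in gamergates and 1010 to 1889 CPM in workers. Of these, 16 were lower and 1 higher (53.3% and 3.33%, beside 28.9% and 29.4% of all genes), and 16 and 2 without worker replicate 3. For 5 genes of trachea the summed level was 223 to 374 CPM in gamergates and 505 to 679 CPM in workers, with 4 lower and 1 higher. No member of the muscle, hemocyte, trachea and fat body lists was without reads in all 4 libraries of a caste, and 1 neuron gene had no read in gamergates. For 17 fat body genes the castes overlapped, at 2449 to 4954 CPM in gamergates and 2392 to 6703 CPM in workers. The highest worker, replicate 1, also had 4141 CPM of apolpp, the blood lipoprotein gene, against 140 to 358 CPM in gamergates and 174 to 500 CPM in the other workers.

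**Figure D5:**
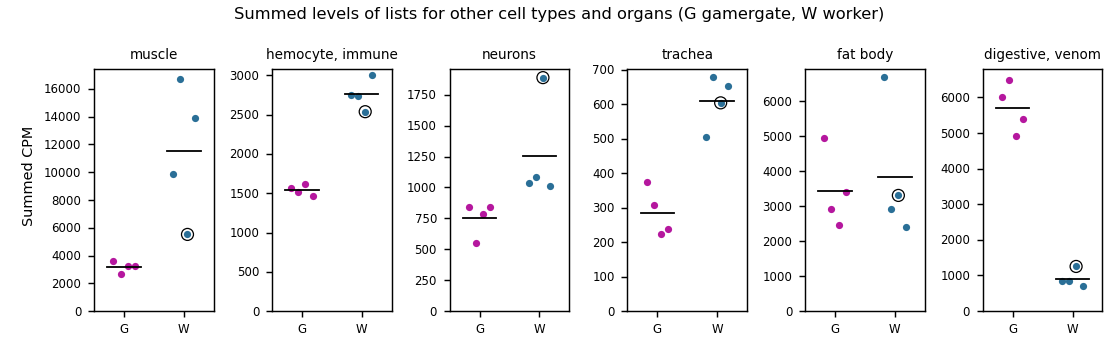
Summed CPM (y axis, from 0, with its own range in each panel) of 6 lists for other cell types and organs in the 4 gamergates (G) and 4 workers (W). Points are libraries, the line is the mean and worker replicate 3 is ringed. The muscle, hemocyte, neuron and trachea lists lie lower in all gamergates, and the fat body list overlaps. The digestive and venom list lies at 4930 to 6500 CPM in gamergates and 703 to 1253 CPM in workers. Its median log2 fold change was -0.08, and 0.69 without worker replicate 3.

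Single genes of these kinds carried large decreases. The prophenoloxidase gene PPO, for melanin in blood cells, had 3.70, 2.82, 1.29 and 3.75 CPM in gamergates, against 21.7, 97.9, 4.44 and 77.7 CPM in workers (-4.11, SE 0.88, adjusted p = 0.00371). The iron carrier gene Tsf1 (-3.36, SE 0.49, adjusted p = 0.000547) and the antimicrobial defensin gene Def2 (-3.58, SE 0.78, adjusted p = 0.00407) were also lower. With library size class as a term all 3 calls were lost and the log2 fold changes were smaller, at -2.02 for PPO (adjusted p = 0.121), -2.08 for Def2 (adjusted p = 0.117) and -0.83 for Tsf1 (adjusted p = 0.0535). In the same 12 libraries without the term the calls held, at -4.09 for PPO, -3.57 for Def2 and -3.34 for Tsf1. The tracheal matrix genes dpy (-2.30, SE 0.23, adjusted p = 9.48e-05), uif (-1.81, SE 0.23, adjusted p = 0.000268) and pio (-2.63, SE 0.46, adjusted p = 0.00134) were lower, whereas serp, a chitin deacetylase, was higher (1.46, SE 0.39, adjusted p = 0.0105).

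A sugar transporter gene and a peptidase gene were among the largest decreases at a mean of at least 5 log2 CPM. A trehalose transporter Tret1-2 homolog (LOC105184288), which carries the blood sugar of insects, had 5.41, 5.27, 7.0 and 18.7 CPM in gamergates, against 569, 727, 159 and 811 CPM in workers (log2 fold change -5.94, SE 0.67, adjusted p = 0.000168, and -6.55 without gamergate replicate 4). Another trehalose transporter, Tret1 (LOC105189530), was higher (2.17, SE 0.17, adjusted p = 4.08e-05). Neprilysin-4 (LOC105191379), a peptidase that cuts signaling peptides, had 7.83, 9.97, 6.65 and 8.94 CPM in gamergates, against 444, 603, 65.7 and 416 CPM in workers (-5.53, SE 0.63, adjusted p = 0.000182). Miox, which opens the ring of inositol, had 15.8, 23.3, 29.1 and 25.7 CPM in gamergates, against 725, 937, 130 and 659 CPM in workers (-4.70, SE 0.57, adjusted p = 0.00023). Worker replicate 3 was the lowest worker in each of the genes that fell.

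The catalase gene Cat, which breaks down hydrogen peroxide, had 87.6, 84.6, 80.2 and 86.1 CPM in gamergates, against 571, 608, 194 and 520 CPM in workers (-2.48, SE 0.32, adjusted p = 0.000302). In the detoxification list 8 of 43 genes were higher and 20 lower (18.6% and 46.5%, beside 29.4% and 28.9% of all genes, median -0.97). With library size class as a term 10 were higher and 11 lower. In the lipid synthesis and storage list 19 of 48 were higher and 13 lower (39.6% and 27.1%, beside 29.4% and 28.9% of all genes, median 0.29). Of the 4 most abundant genes in the lipid list, FASN1, a fatty acid synthase, was lower (-1.18, SE 0.28, adjusted p = 0.00588). ATPCL, which supplies its acetyl-CoA (-0.77, SE 0.12, adjusted p = 0.000718), and Acsl (-0.70, SE 0.22, adjusted p = 0.0239) were lower as well, and Lpin did not pass the test (0.47). Far, a fatty acyl-CoA reductase, was higher (1.92, SE 0.49, adjusted p = 0.00866, and 2.699 without worker replicate 3), as was the desaturase gene Scd (2.56, SE 0.44, adjusted p = 0.00121), whose call did not hold under the term for library size class.

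The caste effect of the ovary was then set against that of the brain of the same castes, by the interaction of tissue and caste over 16 libraries. It passed the threshold for 35.8% of 9674 genes, with a higher effect in the ovary for 1641 genes and a lower one for 1822. Among the enzymes, lipase 3 (LOC105186640) differed by 8.70 on the log2 scale (adjusted p = 1.43e-07), with a brain log2 fold change of -1.25. Chymotrypsin-2 (LOC105182906) also had a positive value in the brain (5.84), and its difference of 3.62 did not pass the test (adjusted p = 0.932). The same held for aminopeptidase N (LOC105180903, 5.06 in the brain, difference 3.16, adjusted p = 0.549) and LOC105181257 (3.95, difference 4.87, adjusted p = 0.175). It also held for LOC105182131 (1.58, difference 8.22, adjusted p = 0.316) and Prdm13 (3.76, difference 0.14, adjusted p = 0.692). Not passing the test does not show equal effects in ovary and brain, and of these genes only Prdm13 had a difference near 0. The germ-line gene Siwi (LOC105184384) differed by -1.94 (adjusted p = 0.000136), sad by 3.17 (adjusted p = 0.000598), Rpn1 by 1.12 (adjusted p = 0.000207) and Atg3 by 3.03 (adjusted p = 7.21e-06). For Kr-h1 the difference between ovary and brain was not past the threshold (-1.42, adjusted p = 0.0750), with a brain log2 fold change of -2.63, and for N it was near 0 (-0.02, adjusted p = 0.973).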

How the data were processed

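The authors trimmed reads with Trimmomatic and aligned them with STAR (version 2.5.3a in the submitters' processing notes) to the H. saltator genome, and deposited raw counts of reads per gene. The program, annotation and strand setting of the counting are not given in the sources used here, so overlapping, antisense and near-identical genes may share reads. The ovary libraries share 1 sequencing lane. Fat body (12 libraries) was left out, and no column of per-sample values in the tables used was left unassigned.

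Identifiers were matched to symbols of the RefSeq gene table (12632 matched, 4115 with a symbol other than LOC), and further protein names came from the name column of the part at hand of the study's list of changed genes. That list's fold changes and p-values were not used. Counts were scaled by the trimmed mean of M values, filtered with filterByExpr (count of at least 10, total of at least 15) and tested with edgeR 4.0.16 (quasi-likelihood F test, Benjamini-Hochberg over all genes tested, adjusted p under 0.05) in R 4.3.3. The SE is the absolute log2 fold change divided by the square root of F. Log2 CPM used a prior count of 2. The interaction with caste in the brain was fitted over 16 libraries taken as independent, although brains and ovaries may come from the same ants. The labels say that each library came from 1 ant. Identical pairs of ovary libraries were absent. Counting error sets a floor of 3 counts per library, 0.126 to 0.560 CPM in gamergates and 0.399 to 1.61 CPM in workers.

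The members and the 36 lists were chosen with earlier results of these data known. Named genes were, per list, the 4 with the highest mean level; the named genes with the largest change in each direction (up to 10) and 3 without a name, with no overlap of the castes and a mean of at least 5 log2 CPM; the study's own identifiers; and genes given by name. Of the study's identifiers, Crz, Elovl and Fasn did not pass the filter. Among the genes described, mesh, Def2, Tm1, fzy, Cdk1, dap, CycD, CycE, CycB3, nvd, aurB, dib, sro, usp, bru3, pch2, PPO, sad, orb, phtm, fzr, Tsf1, Dsk, sit, LOC105188671 and LOC105185703 were chosen after their values were seen. Alternatives covered scaling, filters, tools (DESeq2 1.42.0, edgeR's likelihood ratio and exact tests), the revertants in the fit, a replicate block, library size class, thinning to 1863023 counts, thresholds and leaving out each library. The fit was tested on simulated data.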

Additional observations from a re-analysis of the deposited data

Results flagged for a closer look

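The ovary and brain fits gave a test of the difference between tissues, and genes whose values are given by library above were looked up in it. Unless given as brain values, the numbers in this paragraph are the caste effect (gamergate over worker, log2 scale) in the ovary minus that in the brain. Each such difference had an adjusted p under 0.05 in edgeR's test of the interaction. Among enzymes and unnamed genes, the difference was 6.69 for LOC105189590, 8.70 for LOC105186640 (lipase 3), 3.99 for LOC105186089 (NPC2 homolog) and 5.25 for LOC105187559 (triacylglycerol lipase). Of the largest increases, LOC105181257, LOC105182131, LOC105182906 (chymotrypsin-2), LOC105180903 (aminopeptidase N) and Prdm13 did not pass this test and had positive values in the brain. That does not show equal effects in the tissues. Regulators that passed it were dpn (5.52), LOC105188093 (GATA-binding factor A, 5.69), mirr (-2.88), cut (-1.19), Eip93F (-1.61) and ftz-f1 (-1.17). Germ-line, yolk, eggshell and steroid genes were LOC105184384 (Siwi, -1.94), papi (1.07), Marf1 (1.95), yl (1.72), tsl (2.07) and sad (3.17). The yl value passed although the ovary test with all libraries did not. Of the cell cycle and protein handling genes, Cdk1 (1.36), aurB (1.88), Gp93 (1.76), Rpn1 (1.12) and Atg3 (3.03) had larger effects in the ovary. Genes with a lower effect in the ovary were LOC105184288 (trehalose transporter, -4.44), LOC105191379 (neprilysin-4, -5.45), Miox (-3.54), sls (-4.71), Mhc (-4.49), trol (-1.06), cora (-1.22), Vein (-3.13), dome (-0.76), Cat (-2.45) and PPO (-4.36). Among the genes that passed, the largest difference was that of LOC105186640 and the next that of Dsk (8.13), a neuropeptide gene chosen after its values were seen.

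In single groups, 1 library lay far from the other 3, measured as the gap to its neighbor divided by the range of the group on the log2 CPM scale. Chance alone gives such a library in about 1 in 20 groups. Worker replicate 3 was that library in LOC105187559 (0.863), papi (0.86), Atg3 (0.892), LOC105191379 (0.832), Cat (0.864), sro (0.843) and LOC105185703 (0.924). Gamergate replicate 1 was that library in Gp93 (0.856).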

How the results depend on the processing

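Of 168 named genes past the threshold, 88 kept their call and direction under every alternative that gave a value. The counts of higher and lower genes stayed within 1.5 times of 2725 and 2681 in all alternatives except when a log2 fold change of at least 1 was required (1146 and 1651). They were 2407 to 3302 higher and 2382 to 3089 lower when 1 library was left out, with both highest counts without worker replicate 3, and 1976 and 1940 at an adjusted p under 0.01. Replicate numbers did not pair the castes (correlations of deviations between -0.05 and 0.10, and only replicate 4 matched best with its own number), and the replicate block gave 2644 higher and 2440 lower genes. For the interaction another block was used, which took brain and ovary of the same caste and replicate number as 1 ant. It gave 1581 and 1664 genes, and library size alone gave 1028 and 2556. The share of higher genes among the called was 42.8% with upper quartile scaling and 39.2% with library size alone, against 50.4%. Library size class was a term in a fit that also holds the revertants, 12 libraries in all. There 37 called named genes lost the call or changed sign, 33 of them with their direction kept, and 27 of the 37 held their call in the 12 libraries without the term. Among named genes called in the main fit or under the term, the signs that changed were those of Caf1-55 (LOC105183307) at -0.0783, ref(2)P (LOC105185193) at 0.11, Cpr (LOC105180558) at -0.55, RpL32 (LOC105187193) at 0.0169, Tudor-SN (LOC105191940) at -0.39, Idh3a (LOC105184256) at -0.00355 and CycB3 (LOC105189283) at -0.54. Genes called in neither fit are left out of this list. The cause was not tested. Medians of the initiation factor, V-ATPase, nuclear pore and chromatin lists turned negative with library size alone. Only worker replicate 3 is deeper than 3500000 counts among workers, so that fit compares the castes mainly through it and the revertants. With 4 ants per caste from an unstated number of colonies, p-values measure the spread between these ants, and changes of low genes in workers are limited by their smaller totals.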

Other observations

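The strongest increases in gamergate ovaries fell on genes that carry no name. A symbol other than LOC was found for 42.2% of the genes tested, but for 7.52% of the 319 genes called higher by at least 3 on the log2 scale and 28.1% of the 285 called lower by as much. With protein names added, the shares were 55.3%, 16.9% and 51.2%. Those names come partly from a list of genes that changed in brain or fat body, so they do not cover all genes evenly. The median level over all 8 libraries was 2.57 log2 CPM in the 319 genes, 2.81 in the 285 genes and 5.57 over all genes tested.

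In 15 tested genes no worker library held a read, and 1 of them has a name. These genes passed the filter only through the gamergates, so their direction was set by it. The most abundant, LOC105188671, had 983 to 1985 reads in each gamergate and was at least 606-fold higher than a floor of 3 counts over the 4 workers together. No tested gene was without reads in all gamergates.

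Dsk, sit and LOC105185703 were chosen after their values were seen. Dsk, which encodes sulfakinin, a neuropeptide that curbs feeding in Drosophila, had 277, 231, 277 and 267 CPM in gamergates, against 1.34, 2.38, 3.15 and 2.86 CPM in workers (log2 fold change 6.72, SE 0.22, adjusted p = 1.69e-06). The castes were far apart and the gamergates close together, and the brain log2 fold change was -1.35. The fatty acid elongase gene sit had a mean of 150 CPM in gamergates and 0.258 CPM in workers (9.10, SE 0.39, adjusted p = 3.92e-06). LOC105185703, without a name, had 11201, 8594, 6391 and 10124 CPM in gamergates, against 21.7, 25.4, 2896 and 17.156 CPM in workers. It did not pass the test with all libraries (3.61, adjusted p = 0.0868) and did without worker replicate 3 (8.74, adjusted p = 1.67e-07).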
